A study of Homo sapiens with 18 samples.

Results

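The genes described here were those that MI-1061, an inhibitor of MDM2, raised in SJSA-1 cells and that stood lower when the cells had first been treated with neocarzinostatin (NCS). They were chosen by group means of normalized counts. The MI-1061 mean had to be at least 2 times the DMSO mean and at least 50, and the NCS+MI-1061 mean at most 0.5 times the MI-1061 mean. Of 3074 listed genes 226 met these limits, and 38 were left out by symbol (those that start with SLC, ZNF, LINC, HIST, KRT or ABCA or end with -AS1, and TTN, RYR1, MYPN, MYH16, ASB5, KLHL38, IL6 and FOSB). The remaining 188 genes, 6.12% of those listed, are called members. A further 962 genes met the limits on MI-1061 without the one on NCS+MI-1061 and are called induced but not blunted.

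The 18 libraries were made from poly(A) RNA of SJSA-1, a line grown from a human osteosarcoma in which the MDM2 gene is amplified. The NCS+MI-1061 group received 1 µg/mL NCS for 72 h and 1 µM MI-1061 in the last 24 h, and the MI-1061 group received vehicle (DMSO) in place of NCS. The NCS+MD-224 and MD-224 groups were treated in the same way with 1 µM MD-224, a compound that brings about the degradation of MDM2. The NCS group received NCS for 72 h with DMSO in the last 24 h, and the DMSO group received DMSO throughout. Each group held 3 libraries of 1 cell line, and the sources do not say whether they came from separate cultures, so p-values measure the spread between these libraries. The name MI-1061 follows the sample titles, since the protocol text spells it differently.

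MDM2 binds the transcription factor p53 and marks it for destruction, so compounds that block or remove MDM2 let p53 accumulate and switch on its target genes. NCS is an enediyne antibiotic that cuts DNA, and DNA breaks also activate p53. Among the best known p53 targets are CDKN1A, which encodes the cell-cycle inhibitor p21, and MDM2 itself, which closes a feedback loop.

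Values are the authors' normalized counts, in which the read count of a gene was divided by a size factor for the library. They are not corrected for gene length, so levels of different genes are not compared. The table is a selection, in which no gene had an NCS+MI-1061 mean below 1.75 times its DMSO mean, so members stood well above the limit of 2 with MI-1061. The listed values summed to 4594460 to 17252589 per library, which is not their depth. Recovered reads of the listed genes numbered 4490870 to 10535849 in the 13 libraries that allowed it. Across genes, Pearson correlations between replicates were 0.9636 to 0.9921. In bulk RNA, fewer cells that express a gene and less RNA per cell cannot be told apart.

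MI-1061 raised the members by a median of 12.2 times the DMSO mean, with a range of 3.69 to 227 times. With NCS before MI-1061 they stood at a median of 0.321 of the MI-1061 mean, with a range of 0.0213 to 0.498. The NCS+MI-1061 mean was at or under 0.1 of the MI-1061 mean in 9 members, between 0.1 and 0.2 in 33, between 0.2 and 0.3 in 40, between 0.3 and 0.4 in 58 and above 0.4 in 48. These values chose the members and are a description. Limma called 188 of 188 members higher in MI-1061 than in DMSO libraries, where it called 67.6% of all genes tested. It called 178 members lower in NCS+MI-1061 than in MI-1061 libraries, where it called 10.1% of all genes tested lower. The rule used both contrasts, and nothing is read from these counts.

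**Figure D1:**
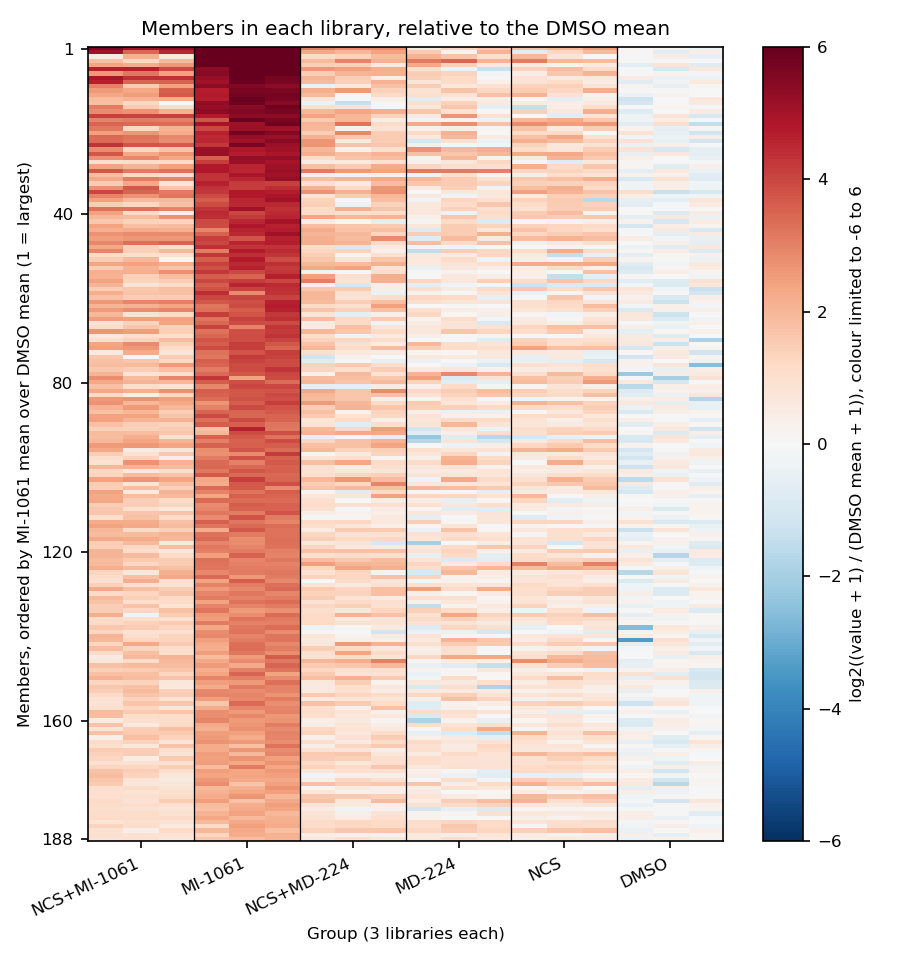
Each row is 1 of the 188 members and each column 1 of the 18 libraries, with colour giving log2 of the value over the DMSO mean (1 added to both). In 168 rows each of the 3 MI-1061 columns is above every other column, and MI-1061 replicate 1 is paler than replicates 2 and 3. The rule used the MI-1061, NCS+MI-1061 and DMSO columns.

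The MI-1061 mean was the highest of the 6 group means in all 188 members. The NCS+MI-1061 mean came second in 144 of them, NCS+MD-224 in 21, MD-224 in 12 and NCS in 11. In 168 members the lowest of the 3 MI-1061 libraries lay above every other library, as it did in 11.7% of all listed genes. DMSO was the lowest group in 157 members, MD-224 in 21, NCS in 7 and NCS+MD-224 in 3. The rule used the MI-1061, NCS+MI-1061 and DMSO libraries and so favours these orders, which are a description.

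MI-1061 replicate 1 was lower for the members than the other MI-1061 libraries. The members' median log2 value over the DMSO mean was 3.23 in that library, against 3.63 and 3.61 in replicates 2 and 3. Their values summed to 166721, against 208242 and 221796. That library was also low in genes induced but not blunted (median 1.54, against 1.88 and 1.79). Over all listed genes its median was 0.86, against 1.08 and 0.95. MDM2 was also lower in that library (1189842, against 1828066 and 1698768), and CDKN1A was not (365099, against 349866 and 349056). When the members were chosen without replicate 1 of any group, 220 genes met the rule. In replicate 1 itself 196 of these 220 had a lower value in NCS+MI-1061 than in MI-1061, 120 of them at most 0.5 times, with a median ratio of 0.462. Chosen without replicate 2, 191 of 193 genes were lower in replicate 2 and 157 were at most 0.5 times, with a median ratio of 0.311. Chosen without replicate 3, 169 of 171 were lower in replicate 3 and 157 were at most 0.5 times, with a median ratio of 0.239. Of the 220, 193 and 171 genes, 181, 177 and 164 were also members. Shares over all listed genes were not computed for single replicates, so these counts are a description.

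At the edge of the rule, AP3B2 and SRXN1 were just inside the limit on the ratio of NCS+MI-1061 to MI-1061 means, both at 0.498, and ZCWPW2 followed at 0.492. ADSSL1 (0.5 after rounding), PTAFR (0.502) and PDCL3P4 (0.502) were just outside it. TAX1BP3 (50.83), SPINT2 (53.05) and ZCWPW2 (57.98) were just inside the limit on the MI-1061 mean, and C1orf162 (49.87), LAMB4 (48.76) and MRGPRE (47.66) were just outside it. NEK8 (3.69 times), TMEM2 (3.8 times) and ARHGEF7-AS2 (4.12 times) had the smallest MI-1061 means relative to DMSO, and no gene lay just outside that limit because of the listing.

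Of 50 genes on a list of p53 targets 47 were in the table. Of these 2 were members, where 6.12% of all listed genes were, and 42 were induced but not blunted. NCS+MI-1061 was above MI-1061 for CDKN1A, which averaged 712597 ± 53235 in NCS+MI-1061 and 354674 ± 9038 in MI-1061 libraries (SD, n = 3 each), and for MDM2, which averaged 2459876 ± 76699 in NCS+MI-1061 and 1572225 ± 337405 in MI-1061 libraries. By limma 32 of the 47 were higher in NCS+MI-1061 than in MI-1061 libraries, where it called 55.9% of all genes tested higher, and 3 were lower. The list's median log2 difference was 0.67, against 0.71 over all genes tested. The 2 list genes among the members were PTCHD4 and TNFRSF10A.

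PTCHD4, which encodes a patched-domain protein that represses hedgehog signalling, had 1417, 941.9 and 1029 normalized counts in NCS+MI-1061 libraries, against 3078, 2562 and 3806 in MI-1061 libraries. It had 951.2, 654.1 and 578.2 in NCS+MD-224 and 928.2, 938.2 and 879.5 in MD-224 libraries, against 266.9, 277.9 and 240.7 in NCS and 74.41, 168.2 and 80.82 in DMSO libraries. The compound-treated libraries all lay above the NCS and DMSO libraries, and NCS+MD-224 libraries overlapped MD-224 libraries. PTCHD4 was 2.71-fold higher in NCS+MD-224 than in NCS libraries (log2 1.44, SE 0.27; limma adjusted p = 0.00124) and 3.49-fold higher in MD-224 than in NCS libraries (log2 1.80, SE 0.27; adjusted p = 0.00029). Both calls held under every alternative run.

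TNFRSF10A, a death receptor for the ligand TRAIL, had 98.78, 32.42 and 69.3 normalized counts in NCS+MI-1061 libraries, against 466.9, 301 and 407.3 in MI-1061 libraries. In the other groups it stayed low, with 13.71, 11.12 and 15.19 in NCS+MD-224, 8.032, 2.576 and 11.52 in MD-224, 0.9812, 6.317 and 10.31 in NCS, and 2.189, 0.961 and 3.069 in DMSO libraries. The 3 MI-1061 libraries stood above all others, the NCS+MI-1061 libraries came next, and the MD-224 and NCS libraries overlapped. Its MI-1061 mean was 189 times its DMSO mean. The gene of its sister receptor, TNFRSF10B, averaged 68088 in NCS+MI-1061 and 66383 in MI-1061 libraries and was not a member.

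**Figure D2:**
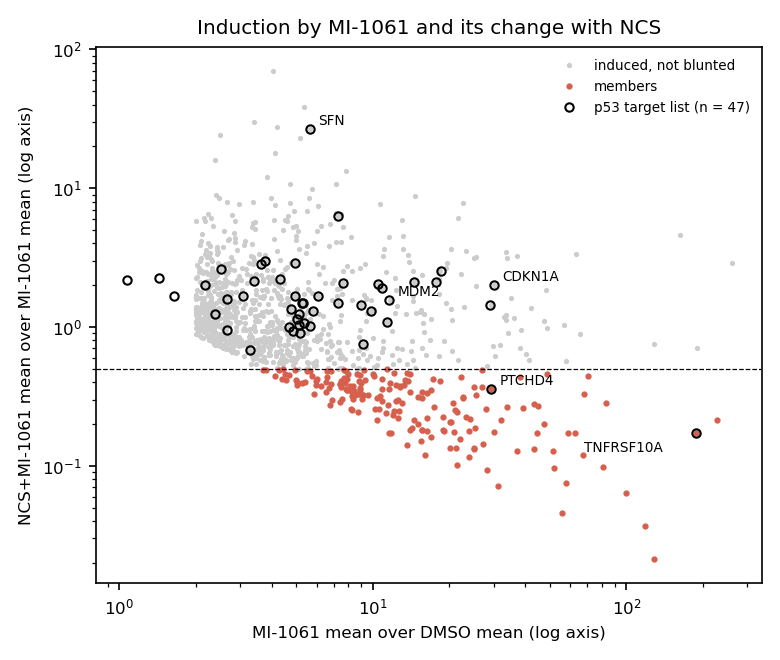
Each point is a gene, with the MI-1061 mean over the DMSO mean on the x axis and the NCS+MI-1061 mean over the MI-1061 mean on the y axis, both on log axes. The dashed line is the limit of 0.5, and of the 47 p53 targets, drawn as rings, PTCHD4 and TNFRSF10A lie below it.

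RefSeq promoter windows (GRCh38.p14, 250 bases before to 50 after a gene's start) were found for 134 of the 188 members. A p53 half-site on either strand was in 6 of these windows (4.48%), against 7.84% of windows of genes induced but not blunted, 6.8% of all listed genes and 6.54% of all 27305 windows. The 60-base stretches that follow hold the match in capitals in 3 members whose values are described here, read 5′ to 3′ on the gene's strand. PTCHD4 (chr6:48111198-48111257, minus strand) is shown because 2 half-sites adjoin in the 20 bases before its start, ACTA2 (chr10:88991522-88991581, minus strand) and IL24 (chr1:206897193-206897252, plus strand) because each holds 1.
PTCHD4: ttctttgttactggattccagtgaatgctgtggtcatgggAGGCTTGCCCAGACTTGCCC
ACTA2: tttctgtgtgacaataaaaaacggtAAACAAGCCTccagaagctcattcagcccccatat
IL24: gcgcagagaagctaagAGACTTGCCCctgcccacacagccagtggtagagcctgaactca
The other 3 members with a match were ACE, MYOZ3 and IGSF23. A match is a description of these letters and not of binding.

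Other motifs, searched on both strands, had these shares. The AP-1 motif TGANTCA was in 4.48% of members' windows and 8.68% of windows of genes induced but not blunted (7.76% of all windows). The cyclic AMP response element TGACGTCA was in 2.24%, against 2.8% (1.98% of all windows), and the NF-kB site in 5.22%, against 6.58% (5.72% of all windows). TATAAA was in 6.72%, against 9.8% (12% of all windows), and GGGCGG, the core of the GC box, in 52.2%, against 64.6% (44.6% of all windows). Members' windows held a median of 13.5 CG dinucleotides, against 24 in genes induced but not blunted and 14 in all windows. Their median GC content was 62.5%, against 65.3% and 58.3%. Matches of different motifs may overlap and were counted separately.

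CSF1, TSPAN31 and LATS2 had the highest normalized counts among the members. CSF1, the growth factor of macrophages, had 17644, 17364 and 16690 normalized counts in NCS+MI-1061 libraries, against 30776, 37458 and 46713 in MI-1061 libraries. LATS2, a kinase of the Hippo pathway, had 6779, 5963 and 6471 in NCS+MI-1061 libraries, against 14267, 17276 and 18564 in MI-1061 libraries. In both genes the 3 NCS+MI-1061 libraries lay close together and below every MI-1061 library. The groups without MI-1061 overlapped for LATS2, which averaged 4544 ± 763 in NCS+MD-224, 3930 ± 877 in MD-224, 4185 ± 432 in NCS and 3336 ± 864 in DMSO libraries (SD, n = 3 each).

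TSPAN31, a tetraspanin gene first found amplified in sarcomas, had 14837, 16930 and 16008 normalized counts in NCS+MI-1061 libraries, against 33740, 41602 and 38796 in MI-1061 libraries. NCS alone gave 15530, 17358 and 17850, so the NCS+MI-1061 and NCS libraries overlapped, while DMSO libraries had 7864, 9668 and 8504. TSPAN31 (chr12:57745039-57750219, GRCh38.p14) overlaps CDK4 in the annotation. The sources do not say whether counting used strand, so reads of overlapping genes cannot be told apart. ACTA2, smooth muscle actin, overlaps FAS in the same way. It had 3476, 2793 and 2939 in NCS+MI-1061 libraries, against 6354, 5516 and 7279 in MI-1061 libraries, and 1141, 693.9 and 961.7 in DMSO libraries. FAS, a death receptor gene and p53 target, averaged 12073 in NCS+MI-1061 and 9306 in MI-1061 libraries, so the pair differed in direction. In all, 94 of the 185 members matched to RefSeq overlap another protein-coding gene or long non-coding RNA.

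SRXN1, which repairs oxidized peroxiredoxins, averaged 4234 ± 125 in NCS+MI-1061 and 8498 ± 1146 in MI-1061 libraries. TMEM2, a cell-surface hyaluronidase, averaged 5720 ± 329 and 11760 ± 3699 in these groups, and its MI-1061 replicate 1, at 7600, was well below 14678 and 13002 in the others. TRIB1, a pseudokinase that brings about degradation of C/EBP factors, averaged 1841 ± 162 in NCS+MI-1061 and 4153 ± 1681 in MI-1061 libraries. LRRC32, which anchors latent TGF-beta at the cell surface, had 1090, 1212 and 1179 in NCS+MI-1061 libraries, against 1936, 3766 and 5613 in MI-1061 libraries. FSTL4, a follistatin-like gene, averaged 1454 ± 37.8 in NCS+MI-1061 and 4730 ± 1281 in MI-1061 libraries. In all 5 genes the NCS+MI-1061 libraries were close to each other and below the MI-1061 libraries, whose spread was wider.

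**Figure D3:**
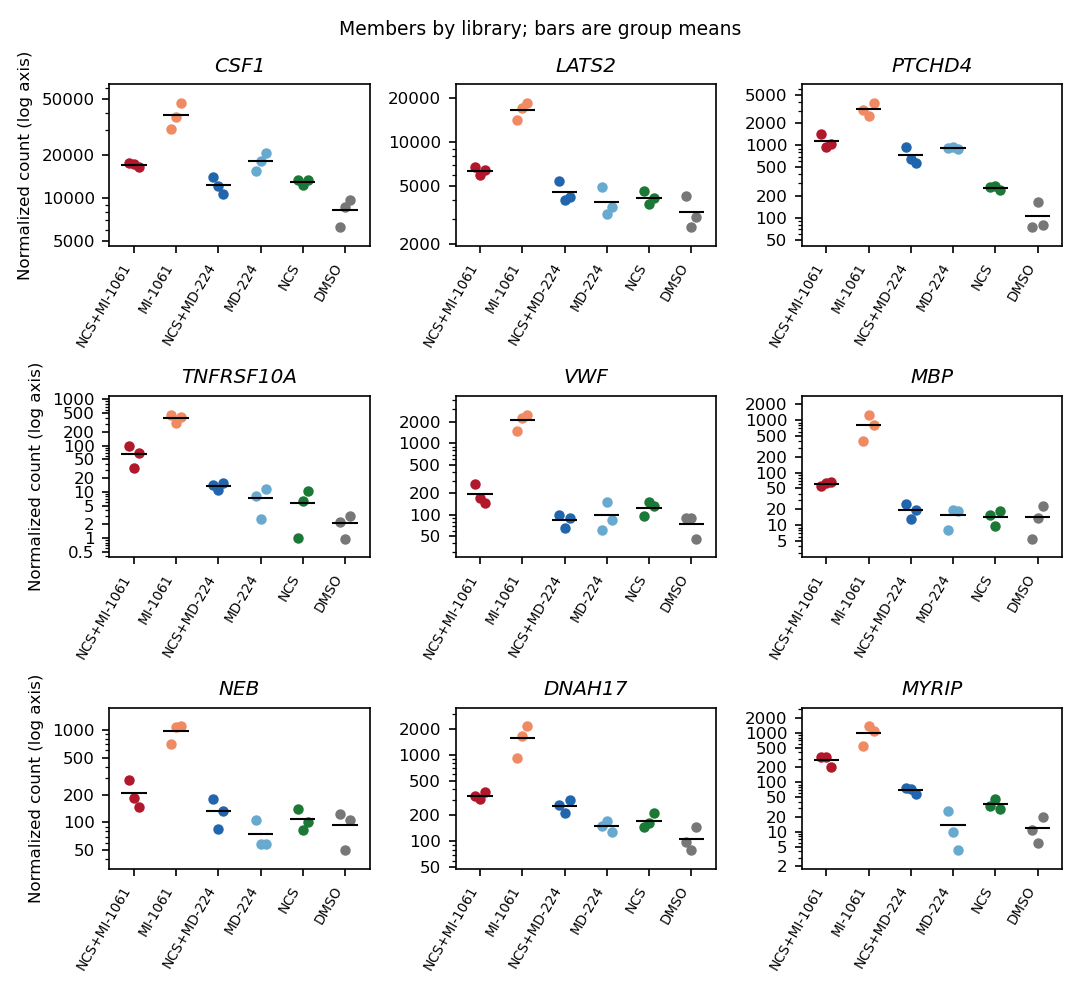
Normalized counts on log axes of 9 members in the 18 libraries, with points for libraries and bars for group means. In each panel the 3 MI-1061 points are the highest, and for NEB the groups without MI-1061 overlap one another.

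FBXW10, an F-box gene, stood lowest in NCS+MI-1061 relative to MI-1061. It had 7.141, 23.72 and 7.997 normalized counts in NCS+MI-1061 libraries, against 681.7, 428.1 and 716.2 in MI-1061 libraries, and 21.59, 8.686 and 4.85 in NCS libraries. Its mean ratio of 0.0213 was the smallest. CEACAM20, a cell adhesion gene, had 9.521, 6.326 and 10.66 in NCS+MI-1061 libraries, against 186.5, 243.4 and 295.1 in MI-1061 libraries. The NCS+MI-1061 libraries of FBXW10 overlapped its NCS libraries. Those of CEACAM20 lay within or below its NCS range of 10.31 to 24.53.

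GAL3ST1, which makes the myelin lipid sulfatide, had 21.42, 14.23 and 5.331 in NCS+MI-1061 libraries, against 254.7, 364.6 and 279.7 in MI-1061 libraries. SHISA7, an auxiliary subunit of neurotransmitter receptors, had 24.99, 22.14 and 29.32 in NCS+MI-1061 libraries, against 403.9, 389.7 and 404.2 in MI-1061 libraries. CD79A, a signalling subunit of the B cell receptor, had 17.85, 19.77 and 19.99, against 169.8, 334.6 and 296.6. The 2 groups did not overlap in any of these 3 genes. SOWAHB, SEZ6 and ASPRV1 had mean ratios of NCS+MI-1061 to MI-1061 of 0.0969, 0.0977 and 0.101.

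Many members are known from tissues other than bone. After their values had been seen, 81 of the 188 were sorted by known role into 9 classes, and 107 were put in none. Medians of NCS+MI-1061 over MI-1061 within classes ran from 0.234 in genes of intestine, liver and kidney (9 members) to 0.371 in signalling and growth control (10 members). The rule used this ratio, and no class was tested.

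Endothelial and vascular genes were 6 members. VWF, the von Willebrand factor of endothelium and platelets, had 270.2, 170.8 and 146.6 normalized counts in NCS+MI-1061 libraries, against 1513, 2299 and 2535 in MI-1061 libraries. KDR, the receptor for vascular endothelial growth factor, had 204.7, 245.2 and 191.9, against 430.9, 465.3 and 700.9. DLL4, a Notch ligand, averaged 50.37 ± 16.3 in NCS+MI-1061 and 279.8 ± 31.8 in MI-1061 libraries, and the others were MMRN2, EDN2 and ACE. Of 4 endothelial markers VWF and KDR were listed, and their summed value was 338.5 to 474.9 in NCS+MI-1061, 1943 to 3235 in MI-1061 and 150.4 to 231.6 in DMSO libraries. The other endothelial markers were not among the listed genes, and the part of other cells in these values was not tested.

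Leukocyte and innate immunity genes were 13 members, CSF1, CD79A and LRRC32 among them. ITGAL, an integrin chain of leukocytes, averaged 39.75 ± 14.2 in NCS+MI-1061 and 219.2 ± 82.9 in MI-1061 libraries, and TLR9, a sensor of unmethylated DNA, 37.03 ± 14.9 and 110.1 ± 35. IL24, a cytokine of the IL-10 family, had 164.2, 157.4 and 175.9 in NCS+MI-1061 libraries, against 204.5, 1506 and 551.8 in MI-1061 libraries, so its mean rests largely on MI-1061 replicate 2. Of 6 haematopoietic markers CD68, ITGAM and LAPTM5 were listed and were not members. Their summed value was 4852 to 4962 in NCS+MI-1061, 2412 to 3052 in MI-1061 and 439.9 to 1111 in DMSO libraries. CD68 carried most of the sum, averaging 3104 in NCS+MI-1061 and 661.5 in MI-1061 libraries, while LAPTM5 was lower with NCS, at 1402 and 1762. Of 8 osteoblast markers COL1A2 and SPARC were listed, at a summed 161739 to 186535 in NCS+MI-1061, 79221 to 135432 in MI-1061 and 69712 to 87641 in DMSO libraries. SPARC carried most of that sum, and COL1A2 averaged 41628 in NCS+MI-1061, 9783 in MI-1061 and 14390 in DMSO libraries. Of 4 epithelial markers 0 were listed.

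Genes of myelin and the nervous system were 12 members. MBP, myelin basic protein, had 55.94, 63.26 and 66.64 normalized counts in NCS+MI-1061 libraries, against 394.9, 1274 and 793.1 in MI-1061 libraries, and its NCS+MD-224, MD-224, NCS and DMSO libraries lay between 5.472 and 25.31. The MI-1061 libraries of MBP spread widely and did not reach down to the others. MAG, another myelin protein, had 67.84, 65.64 and 66.64 in NCS+MI-1061 libraries, against 106.8, 165.5 and 162.9 in MI-1061 and 2.944, 1.579 and 6.062 in NCS libraries. Its NCS+MI-1061 mean was 18.9 times its NCS mean, the highest such ratio among members. PLXNA4, a semaphorin co-receptor, averaged 520.2 ± 102 in NCS+MI-1061 and 1225 ± 260 in MI-1061 libraries, and GRIK5, a kainate receptor subunit, 111.9 ± 25.9 and 623.9 ± 188.

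Muscle genes were 9 members. NEB, the thin-filament protein nebulin, had 288, 182.7 and 146.6 normalized counts in NCS+MI-1061 libraries, against 710, 1082 and 1099 in MI-1061 libraries. Its DMSO libraries had 122.6, 49.97 and 106.4 and overlapped those of NCS+MD-224, MD-224 and NCS. PYGM, muscle glycogen phosphorylase, averaged 73.31 ± 34.8 in NCS+MI-1061 and 544.8 ± 167 in MI-1061 libraries. UCP3, a mitochondrial carrier of muscle, averaged 48.79 ± 8.24 and 407.7 ± 125.

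Axonemal genes, which build the moving core of cilia and sperm tails, were 8 members. DNAH17, a dynein heavy chain, had 332, 306 and 377.2 normalized counts in NCS+MI-1061 libraries, against 928.6, 1655 and 2149 in MI-1061 libraries. DNAH12 averaged 64.53 ± 16 in NCS+MI-1061 and 504.7 ± 55.7 in MI-1061 libraries, and DNAH3 51.22 ± 15.7 and 163.2 ± 25.5. The other 5 were CFAP genes, from CFAP70 at 383.4 ± 49.7 to CFAP54 at 66.68 ± 15.1 in MI-1061 libraries. Germ-line genes were 5 members, among them MSH4, a meiotic recombination gene, at 109.6 ± 16.2 in NCS+MI-1061 and 631.2 ± 112 in MI-1061 libraries, and PIWIL2, a partner of small germ-line RNAs, at 31.81 ± 6.32 and 113 ± 8.65.

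Genes of epithelia and epidermis were 9 members. EPPK1, the keratin-binding protein epiplakin, averaged 124.5 ± 16.2 in NCS+MI-1061 and 1086 ± 368 in MI-1061 libraries. ASPRV1, a protease of the epidermis, had 23.8, 20.56 and 21.32 in NCS+MI-1061 libraries, against 207.1, 227.8 and 213.6 in MI-1061 libraries. The replicates of each of these groups lay close together. Among the 9 genes of intestine, liver and kidney, CUBN, an uptake receptor for vitamin B12, averaged 81.66 ± 25.8 in NCS+MI-1061 and 573.3 ± 89.9 in MI-1061 libraries, and PROZ, an anticoagulant factor of plasma, 150 ± 63 and 932.8 ± 155.

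Outside these classes, TBX4, a transcription factor of limb and lung development, had the largest response to MI-1061. It had 249.9, 167.7 and 179.9 normalized counts in NCS+MI-1061 libraries, against 358.9, 1221 and 1196 in MI-1061 libraries and 4.377, 4.805 and 3.069 in DMSO libraries, a mean 227 times that of DMSO. AKR1B10, an aldo-keto reductase, averaged 483.8 ± 104 in NCS+MI-1061 and 1116 ± 272 in MI-1061 libraries. RPL13AP20, RNA5-8S5, SNORA65, HTATSF1P2, CYP2B7P and CYP2A6 have near-identical copies elsewhere, and their counts are uncertain.

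Of all listed genes 6.12% were members, and the shares of fixed gene lists lay on both sides of this. Genes left out by symbol, such as FOSB, IL6, TTN and the KRT genes, could not be members. Any of them on a list therefore lowers its share, and the shares are a description. None of 14 listed immediate early and MAPK feedback genes, of 8 NF-kB pathway genes or of 4 interferon-stimulated genes was a member. Cytokines and chemokines gave 2 of 10 (CSF1, IL24), the NRF2 response 2 of 5 (AKR1B10, SRXN1), striated muscle 2 of 7 (MYOM1, NEB), stratified epithelium 1 of 17 and neuronal and synaptic genes 1 of 11 (RET). Ciliary and axonemal genes gave 3 of 6 (CFAP54, DNAH17, DNAH3), ion channels 3 of 48, G protein-coupled receptors 3 of 31, adhesion and matrix genes 7 of 56, and cyclic nucleotide and calcium signalling enzymes 1 of 14 (ADCY8). Symbols that begin as those of myosins and dyneins gave 7 of 20, and this prefix also takes in the sarcomere genes MYOM1 and MYOZ3.

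How the members behaved after NCS without a compound could be read beside these values, although the DMSO libraries were used by the rule. The NCS mean was a median of 2.03 times the DMSO mean, at least 2 times in 96 members and under 1 in 10. Limma called 97 members higher in NCS than in DMSO libraries, where it called 54% of all genes tested, and nothing is read from this count. CEACAM20 (7.45 times), LGR6 (6.85), PCSK2 (6.75), SPINT2 (5.74) and TBX4 (5.18) had the largest NCS means relative to DMSO. The ratio of CEACAM20 divides by low DMSO values (2.189, 1.922 and 2.046). NCS+MI-1061 stood at a median of 1.79 times the NCS mean, against 2.82 times in genes induced but not blunted. The NCS+MI-1061 mean was under the NCS mean in 21 members. PCSK2, a prohormone convertase, had 96.4, 59.31 and 73.3 normalized counts in NCS+MI-1061 libraries, against 198.2, 90.8 and 207.9 in NCS libraries, the lowest such ratio at 0.461. The highest NCS+MI-1061 library lay above the lowest NCS library.

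**Figure D4:**
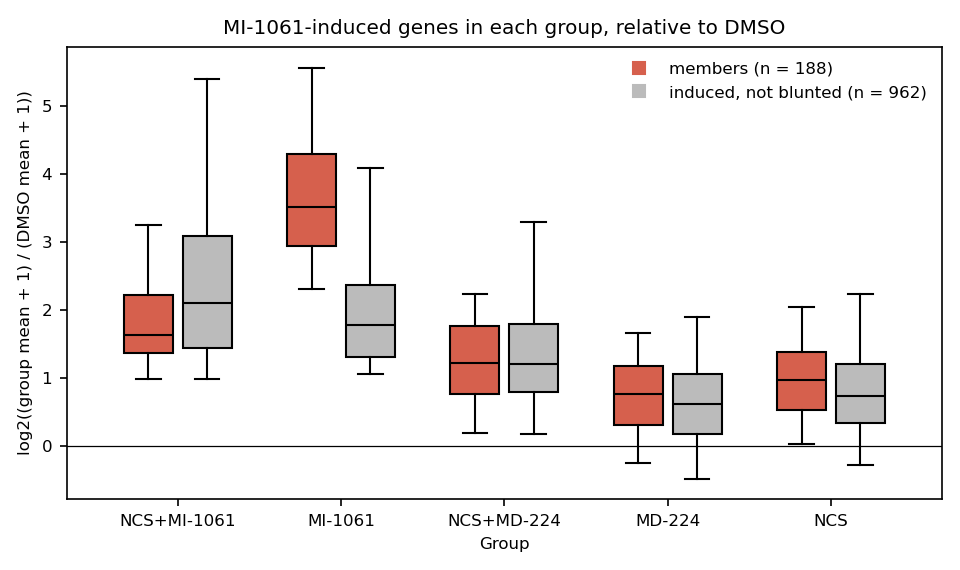
Boxes show log2 of the group mean over the DMSO mean (1 added to both) for the 188 members and the 962 genes induced but not blunted, with the median, quartiles and 5th and 95th percentiles. The members' median is above that of the other set in MI-1061 and below it in NCS+MI-1061, 2 groups that the rule used, and the boxes of the 2 sets overlap in NCS+MD-224, MD-224 and NCS.

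At the same dose and time the members stood lower with MD-224 than with MI-1061. The MD-224 mean of members was a median of 1.77 times the DMSO mean, at least 2 times in 69 members. The MI-1061 mean was a median of 7.93 times the MD-224 mean in members and 2.33 times in genes induced but not blunted, and since the members were chosen for a high MI-1061 mean this is a description. CEACAM20 (11.2 times), PTCHD4 (8.49), LGR6 (5.58), KCND3 (5.56) and LOC101927740 (5.45) had the largest MD-224 means relative to DMSO. For CEACAM20 the DMSO mean was only 2.052 and the MD-224 mean 22.98. Limma called 69 members higher and 2 lower in MD-224 than in DMSO libraries, where it called 39.9% of all genes tested higher and 2.8% lower, and the DMSO libraries are shared with the rule.

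Whether NCS also lowered these genes in degrader-treated cells was tested by comparing libraries that the rule did not use. The spread in the test was estimated from all 18 libraries, those used by the rule included. Of 188 members 41 were higher and 2 lower in NCS+MD-224 than in MD-224 libraries by limma, where 39% of all genes tested were higher and 0.586% lower. In either direction 43 members and 39.6% of all genes tested were called. The members' share of higher calls was 21.8%, and their median log2 difference was 0.48, against 0.57 in genes induced but not blunted and 0.45 over all genes tested. All 3 NCS+MD-224 libraries were above all 3 MD-224 libraries in 53 members and below them in 8, against 48.5% and 1.89% of all listed genes. Fitted on these 2 groups alone 28 of 172 members were higher and 1 lower, against 34% and 0.366% of all genes tested. With the replicate number as a block 55 members were higher and 4 lower, against 47.9% and 1.3% of all genes tested. TMM scaling moved the median log2 of all genes to 0.00, and 12 members were then higher and 11 lower, against 13.9% and 7.26% of all genes tested. This scaling was computed on the listed genes alone, which are a selection. It shifted group means by a median log2 of −0.83 in NCS+MI-1061 to 0.78 in DMSO libraries. It thus takes out differences that most listed genes share, those of treatment included. The count of 41 higher members was 24 without NCS+MD-224 replicate 1 and 27 without MD-224 replicate 3, where 27.1% and 30.5% of all genes tested were higher. It was 24 with replicate 1 left out of all groups (28.4% of all genes), and 14 with replicate 3 left out (15.5%).

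Members had lower counts than the genes they are set beside. Their mean over the 9 NCS+MD-224, MD-224 and NCS libraries had a median of 33.3, against 368 in genes induced but not blunted and 384 over all listed genes. Of the members 169 had a mean of at least 10 there. The part of low counts in the shares called was not tested.

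The members that rose most in NCS+MD-224 were of several kinds. MYRIP, which links secretory granules to myosin, had 78.04, 71.94 and 57.72 normalized counts in NCS+MD-224 libraries, against 26.39, 9.659 and 4.188 in MD-224 libraries. It was 6.07-fold higher (log2 2.60, SE 0.52; limma adjusted p = 0.000854). EPYC, a small proteoglycan of cartilage, had 39.02, 40.79 and 50.63 in NCS+MD-224 libraries, against 9.179, 7.727 and 4.188 in MD-224 libraries, 5.72-fold higher (adjusted p = 0.000102). In both genes the groups did not overlap, and the calls held under every alternative run. With MI-1061 the order was the opposite, as the rule requires, and MYRIP averaged 284.6 ± 72.4 in NCS+MI-1061 and 1002 ± 427 in MI-1061 libraries.

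HKDC1, a hexokinase-like enzyme, had 350.1, 293.7 and 362.5 in NCS+MD-224 libraries, against 161.8, 53.44 and 58.63 in MD-224 libraries (4.14-fold; limma adjusted p = 0.000576). SPINT2, an inhibitor of membrane serine proteases, had 29.53, 34.11 and 62.78 in NCS+MD-224 libraries, against 8.032, 9.659 and 8.376 in MD-224 libraries (4.23-fold; adjusted p = 0.000794). Neither gene showed an overlap between the groups. ATP2B2, a calcium pump, was 5.05-fold higher (adjusted p = 0.00295) and IL24 4.48-fold higher (adjusted p = 0.00811). The call on ATP2B2 was lost with replicate 3 left out of all groups (adjusted p = 0.108), and that on IL24 with replicate 1 (0.0739) or 3 (0.152) left out.

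**Figure D5:**
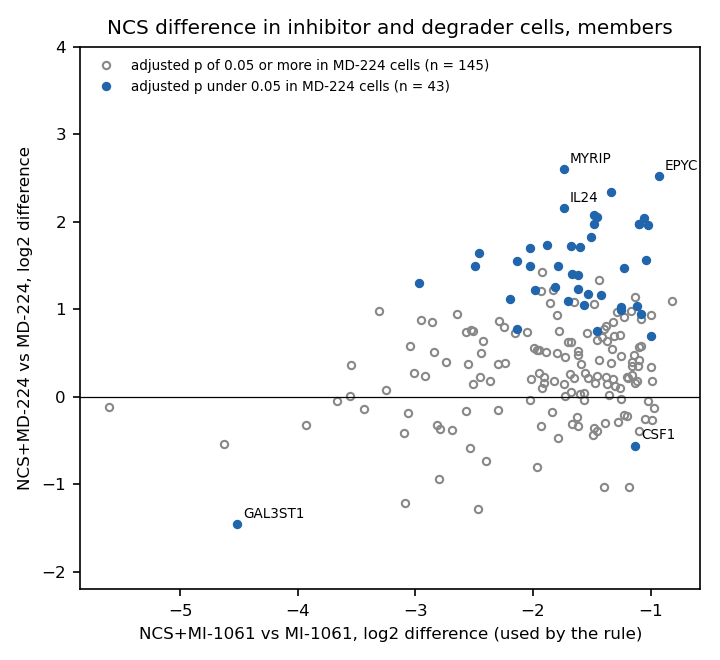
Each point is a member, with the log2 difference of NCS+MI-1061 and MI-1061, which chose the members, on the x axis and that of NCS+MD-224 and MD-224 on the y axis. Filled points passed an adjusted p of 0.05 on the y axis, and of these 43 points 41 lie above 0, with CSF1 and GAL3ST1 below it.

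CSF1 and GAL3ST1 were lower with NCS in degrader-treated cells too. CSF1 had 14056, 12278 and 10736 normalized counts in NCS+MD-224 libraries, against 15639, 18165 and 20907 in MD-224 libraries. The groups did not overlap, and CSF1 was at 0.678-fold (log2 −0.56, SE 0.17; limma adjusted p = 0.0132). The call was lost without NCS+MD-224 replicate 3 (adjusted p = 0.0591) and without MD-224 replicate 3 (0.0703). It was also lost with replicate 2 (0.0907) or 3 (0.201) left out of all groups, and in edgeR (0.0724). GAL3ST1 had 4.218, 1.483 and 6.075 in NCS+MD-224 libraries, against 11.47, 15.45 and 8.376 in MD-224 libraries (0.363-fold, log2 −1.46, SE 0.51; adjusted p = 0.0292). The groups did not overlap, but these values are low, and GAL3ST1 failed the filter when only these 2 groups were used. The call was lost in edgeR (adjusted p = 0.096), without NCS+MD-224 replicate 1 (0.0539) or 2 (0.139) and without MD-224 replicate 1 (0.0596) or 2 (0.0936). It was also lost with replicate 1 (0.0784) or 2 (0.347) left out of all groups.

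Among the 69 members whose MD-224 mean was at least 2 times the DMSO mean, 28 had a lower mean in NCS+MD-224 than in MD-224, 5 of them at most 0.5 times. Their median ratio was 1.15. In genes induced but not blunted that met the same limit on MD-224, 63 of 277 were lower, with a median ratio of 1.39. Both sets were picked for a high MD-224 mean, which the ratio divides by, so the values are a description. PTCHD4 was among the 69, at 0.778-fold (adjusted p = 0.287).

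MD-224 after NCS was compared with NCS alone to show what the degrader did to the members once NCS had been given. Limma called 6 members higher (3.19%) and 0 lower, where it called 15.1% of all genes tested higher and 0% lower, and 28% of genes induced but not blunted were higher. At an unadjusted p under 0.05 there were 20 members and 895 of the 3073 genes tested, and edgeR called 2 members higher and 0 lower, against 5.37% and 0% of all genes. The members' median log2 difference was 0.25, against 0.47 in genes induced but not blunted and 0.30 over all genes tested, and the median standard error was 0.43, against 0.28 and 0.26. Fitted on these 2 groups alone 4 of 174 members were higher and 0 lower, against 19.5% and 0% of all genes tested. With the replicate number as a block 13 members were higher (24.6% of all genes tested), and with TMM scaling 2 (3.78%). The count was 2 without NCS+MD-224 replicate 1 and 3 without NCS replicate 2. Of the 3073 genes tested 186 and 287 were then higher, in place of 465. The members' count was 3 whichever replicate number was left out of all groups. With replicate 1, 2 or 3 left out, 176, 354 and 163 of all genes tested were higher, in that order. Of the 47 p53 targets 42 were higher in this comparison and 0 lower (28 higher with TMM scaling), with a median log2 difference of 1.13.

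Among the 6 members were PTCHD4, MUC5B, MAG, AKR1B10 and ACTA2. MUC5B, a gel-forming mucin, had 25.31, 8.158 and 20.25 normalized counts in NCS+MD-224 libraries, against 4.906, 0.7896 and 2.425 in NCS libraries (5.21-fold; limma adjusted p = 0.00323; 0.098 with replicate 3 left out of all groups). AKR1B10 had 227.8, 212.1 and 114.4, against 59.85, 75.01 and 97.6 (2.31-fold; adjusted p = 0.0178), and ACTA2 had 2024, 1572 and 1166, against 1209, 640.4 and 648.1 (1.95-fold; adjusted p = 0.0136). The groups overlapped in ACTA2 and not in MUC5B or AKR1B10. MAG was 3.61-fold higher (adjusted p = 0.0314). MUC5B and MAG failed the filter when only these 2 groups were used. Calls on ACTA2, AKR1B10 and MAG were each lost in 7 to 9 alternatives, all 3 of them with TMM scaling, in edgeR and without NCS+MD-224 replicate 1 (adjusted p = 0.107 in ACTA2, 0.116 in AKR1B10 and 0.156 in MAG).

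MD-224 alone was set against NCS alone as the remaining comparison between libraries that the rule did not use. Limma called 3 members higher and 18 lower in MD-224 than in NCS libraries, where it called 3.38% of all genes tested higher and 12.6% lower. The members' shares were 1.6% and 9.57%, and their median log2 difference was −0.17, against −0.13 over all genes tested. Fitted on these 2 groups alone 4 of 169 members were higher and 17 lower, against 3.88% and 13.2% of all genes tested. With the replicate number as a block 8 members were higher and 22 lower, against 6.18% and 19.2% of all genes tested. TMM scaling gave 7 higher (7.39%). In either direction 21 members and 16% of all genes tested were called. The 21 became 11 without MD-224 replicate 3, 12 without NCS replicate 2 and 5 with replicate 3 left out of all groups. Of all genes tested 2.38% were then higher and 7.78% lower, 2.38% and 8.49%, and 0.651% and 2.18%, in that order. With replicate 1 left out of all groups 11 members were lower, against 10% of all genes tested. EdgeR called 1 higher and 7 lower, against 1.07% and 5.66% of all genes.

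PTCHD4, ACTA2 (2.34-fold; limma adjusted p = 0.00313) and AKR1B10 (1.99-fold; adjusted p = 0.0456) were the 3 higher members. The call on ACTA2 was lost with replicate 3 left out of all groups (adjusted p = 0.0898) and in edgeR (0.0632). That on AKR1B10 was lost in edgeR (0.0838), with any replicate number left out of all groups (0.0862 to 0.292), and without MD-224 replicate 1 or 3 or any NCS library (0.0507 to 0.172). LRP2, an endocytic receptor of kidney tubules, had 13.77, 10.3 and 6.282 normalized counts in MD-224 libraries, against 81.44, 36.32 and 66.69 in NCS libraries. The groups did not overlap. LRP2 was at 0.18-fold (log2 −2.47, SE 0.37; adjusted p = 0.000306) and passed the threshold under every alternative run, as did SPINT2. SPINT2 was at 0.251-fold (adjusted p = 0.00353) and EPYC at 0.217-fold (adjusted p = 0.000991; 0.0639 with replicate 3 left out of all groups). ACSL6, MYOM1 and LTF were at 0.232-, 0.255- and 0.261-fold. MYOM1, a sarcomere protein gene, lost its call without MD-224 replicate 1 or 3 and without NCS replicate 1 or 2 (adjusted p 0.0746 to 0.103), among 7 alternatives. LTF, which encodes lactoferrin, lost it without MD-224 replicate 2 or 3 and without NCS replicate 3 (0.0581 to 0.0681), also among 7. ACSL6, a fatty acid activating enzyme, lost it with replicate 2 (0.0532) or 3 (0.108) left out of all groups.

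The fixed lists can be read in the same 3 comparisons, where members are a small part of them. In NCS+MD-224 against MD-224 limma called 25 of 47 p53 targets higher and 1 lower (10 and 6 with TMM scaling), 10 of 14 immediate early and MAPK feedback genes higher, 7 of 8 NF-kB pathway genes higher, and 8 of 10 cytokines and chemokines higher and 2 lower. Their median log2 differences were 0.57, 1.31, 1.07 and 2.40, against 0.45 over all genes tested, of which 39% were higher. Striated muscle genes (6 of 7 higher, median 2.07), neuronal and synaptic genes (6 of 11, 1.22), ciliary and axonemal genes (3 of 6, 0.82) and myosins and dyneins (12 of 20, 0.82) had none lower. Ion channels (23 of 48 higher, 1 lower, 0.66), G protein-coupled receptors (11 of 31, 0.56), adhesion and matrix genes (20 of 56 higher, 1 lower, 0.67), signalling enzymes (6 of 14, 0.79), stratified epithelium (7 of 17, 0.67), interferon-stimulated genes (2 of 4, 0.82) and the NRF2 response (2 of 5, 0.30) completed the lists. The 2 lower cytokine genes included CSF1.

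In MD-224 against NCS the p53 targets were 28 higher and 0 lower, with a median log2 difference of 0.63, against −0.13 over all genes tested. Of all genes tested 3.38% were higher and 12.6% lower there. Cytokines and chemokines were 0 higher and 6 lower (median −1.80), immediate early and MAPK feedback genes 0 and 6 (−0.84), NF-kB pathway genes 0 and 4 (−0.78) and striated muscle genes 0 and 5 (−1.45). In NCS+MD-224 against NCS 42 p53 targets and 15.1% of all genes tested were higher. The higher genes were 11 of 56 in adhesion and matrix, 5 of 48 ion channels and 5 of 17 in stratified epithelium. They were 4 each of receptors, signalling enzymes and myosins and dyneins, 2 each of the cytokine and NRF2 lists, and 1 or 0 in the other lists.

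In the genome the members were spread over 22 chromosomes, with 22 members on chromosome 17 and 21 on chromosome 19. Of the 185 matched to RefSeq 166 were protein coding, 14 long non-coding RNAs and 4 pseudogenes. Protein-coding members spanned a median of 35 kb, with quartiles of 14.6 and 130 kb, and 28.3% spanned over 100 kb. In genes induced but not blunted the median was 31.7 kb and 20.7% spanned over 100 kb, and over all listed genes 30.1 kb and 20.8%. FSTL4 is one of the long members (chr5:133196455-133842067, 645613 bases). Members seldom lay side by side: 10.3% had another member within 100000 bases, against 27% in the larger set of genes induced but not blunted, where more neighbours come with more genes. Pairs included AOC2 and AOC3, which encode amine oxidases 492 bases apart on chromosome 17, F10 and PROZ, which encode vitamin K-dependent plasma proteins, and CEACAM20, IGSF23 and CEACAM19 on chromosome 19.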

How the data were processed

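The authors deposited normalized counts (a signal) for 3074 genes in 18 libraries of poly(A) RNA. Per the submitters' processing notes the build was GRCh38 and the tools included DESeq2 2.11.40.6, featureCounts 1.6.3 and HISAT2 2.0.5.2, without the role of each; strand use is not given in the sources used here. Whole reads were recovered in 13 libraries, where 100.0% of values up to 2000 reads were whole within 0.01 reads (size factors 0.6506 to 1.553), and not in 5.

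The members and gene lists were chosen with earlier results of these data known. Differences were fitted on log2(value + 1) with limma 3.58.1 (trended) in R 4.3.3, all 6 groups in 1 fit, for 3073 genes with values of at least 10 in at least 3 libraries, so fold changes understate those of low genes. P-values are two-sided, adjusted by Benjamini-Hochberg over all genes tested, with calls under 0.05. All 188 members passed the filter, and 186 passed it without the MI-1061 libraries. With only the 2 compared groups in filter and fit, 172 members were tested in NCS+MD-224 against MD-224. There were 174 in NCS+MD-224 against NCS and 169 in MD-224 against NCS, so the other groups brought the rest into each test. Means and ratios of means are on the scale of the values. EdgeR 4.0.16 (quasi-likelihood) was run on recovered reads as an alternative added after the data were seen. The tests were tried on simulated data.

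Residuals of like-numbered libraries correlated across genes by 0.203, 0.38 and 0.135 in NCS+MD-224 against MD-224, 0.281, 0.416 and 0.119 in NCS+MD-224 against NCS, and 0.314, 0.392 and 0.13 in MD-224 against NCS. All exceed 0.1, so the replicate numbers were taken to pair libraries. The main fit leaves the number out, and so do the standard errors and limma adjusted p-values given for genes. Values with a block on the number are given where they moved a count by more than 1.5 times.

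Genes named are the 10 members with the highest MI-1061 mean, the 10 with the smallest ratio, those at the limits, up to 6 called members per direction and tested comparison, members of 15 gene lists, and the 5 with the highest NCS and MD-224 means over DMSO. Others were named after their values were seen. Names, positions and promoter windows (the first listed per gene) are from RefSeq for GRCh38.p14, with 167 members matched by symbol, 8 by gene ID and 10 by synonym. Figures were drawn with matplotlib 3.10.9. Some named results are not reported here.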

Additional observations from a re-analysis of the deposited data

Results flagged for a closer look

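In 4 members the response to NCS went opposite ways with and without MD-224 in every library. CSF1 had 14056, 12278 and 10736 normalized counts in NCS+MD-224 libraries, all below 15639, 18165 and 20907 in MD-224 libraries, at 0.678-fold by limma, while NCS libraries (13385, 12447 and 13470) were all above DMSO libraries (6240, 8680 and 9770). LOC101927740, a long non-coding RNA, had 16.87, 57.1 and 26.33 in NCS+MD-224 libraries, all below 59.66, 108.8 and 59.68 in MD-224 libraries, with a mean ratio of 0.44, while NCS libraries (29.44, 54.48 and 32.13) were all above DMSO libraries (2.189, 19.22 and 20.46). LOC100288798, another non-coding gene, had 29.53, 37.82 and 30.38 in NCS+MD-224 libraries, all below 48.19, 40.57 and 43.97 in MD-224 libraries, with a mean ratio of 0.736, while NCS libraries (36.3, 45.01 and 35.77) were all above DMSO libraries (12.04, 29.79 and 25.58). PIK3R6, a regulatory subunit of a phosphoinositide 3-kinase, had 21.09, 24.47 and 20.25 in NCS+MD-224 libraries, all below 27.54, 57.31 and 59.68 in MD-224 libraries, with a mean ratio of 0.455, while NCS libraries (23.55, 45.01 and 43.04) were all above DMSO libraries (10.94, 7.688 and 14.32). By limma the response to NCS with MD-224 minus that without it was −1.25 on the log2 scale in CSF1 (SE 0.23), −3.06 in LOC101927740 (SE 0.86), −1.29 in LOC100288798 (SE 0.50) and −2.68 in PIK3R6 (SE 0.68). The DMSO libraries in this difference were used to choose the members, so it is given as a description, with no p. The 4 genes were picked for this order of their libraries. All NCS+MD-224 libraries were below all MD-224 libraries in 8 members and in 1.89% of all listed genes. All NCS libraries were above all DMSO libraries in 108 members and in 1803 of 3073 genes tested. The share of all listed genes with both orders was not computed, so nothing is read from the count of 4.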

How the results depend on the processing

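Calls of members, and of all genes tested, depended on scaling and on single libraries. TMM scaling was computed on the listed genes alone, a selection, and takes out differences that most of them share. In NCS+MD-224 against MD-224 TMM scaling gave 23 calls (12 higher, 11 lower) in place of 43. Of all genes tested 13.9% were then higher and 7.26% lower, in place of 39% and 0.586%. Lower calls numbered 4 with the replicate block, 1 when other groups were left out of the fit and 1 in edgeR. The shares of all genes tested were 1.3%, 0.366% and 0.488%. Leaving out libraries gave 15 to 48 calls, 14 to 47 higher and 0 to 4 lower, among them 26 (24 higher) without NCS+MD-224 replicate 1, 28 (27 higher) without MD-224 replicate 3 and 28 (24 higher) with replicate 1 left out of all groups. Over all genes tested, leaving out libraries gave 15.5% to 36.2% higher and 0.0326% to 0.814% lower. In NCS+MD-224 against NCS the 6 calls were 2 with TMM scaling, 13 with the replicate block and 2 in edgeR. They were 2 to 8 (0 lower) with libraries left out. Of all genes tested 15.1% were higher in the main fit, 3.78% with TMM scaling, 24.6% with the block and 5.37% in edgeR. With libraries left out 5.31% to 15.1% were higher. In MD-224 against NCS there were 7 higher members with TMM scaling and 8 with the replicate block, in place of 3, edgeR called 8 (1 higher, 7 lower), and leaving out libraries gave 5 to 22 calls, 1 to 4 higher and 4 to 19 lower, among them 11 (9 lower) without MD-224 replicate 3 and 12 (10 lower) without NCS replicate 2. Of all genes tested 7.39% were higher there with TMM scaling and 6.18% with the block, in place of 3.38%. Over all genes edgeR called 1.07% higher and 5.66% lower. Leaving out libraries gave 0.651% to 3.35% higher and 2.18% to 11.7% lower over all genes. EdgeR used fewer libraries by construction. Otherwise the cause was not tested.

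The number of members was 304 with a ratio of at most 0.67, 101 with at most 0.33, 100 with an MI-1061 mean of at least 200, 294 with TMM scaling (184 of the 188 among them), and 171 to 220 with a replicate left out. Of 358 values of 23 results on single genes 0 reversed and 77 lost the call, and 8 results passed the threshold throughout. The block changed no call on a named gene. A pseudocount of 5 and no filter changed no count by more than 1.5 times.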
